A study of Mus musculus with 12 samples.

Results

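The genes of V(D)J recombination and of the pre-B receptor were taken as 10 gene rows by symbol: Rag1, Rag2, Dntt, Vpreb1, Vpreb2, Igll1, Vpreb3, Cd79a, Cd79b and Ebf1. All 10 were present in the gene list of the embryonic stage (E16.5, 31053 genes) and in that of postnatal day 3 (P3, 22597 genes). They were followed in droplet-based single-cell RNA counts from mouse liver, a site of B cell formation around birth. The animals came from crosses of heterozygous carriers of Nodder, a germline missense allele of the Notch ligand gene Jag1, and 3 genotypes were labelled at each stage: Jag1+/+, Jag1Ndr/+ and Jag1Ndr/Ndr. The labels gave 2 individuals for each of these 6 groups and did not mention pooling. Homozygous pups at P3 were recognised by jaundice, whereas the P3 controls were genotyped afterwards. TrypLE was added to the digestion at E16.5 only. Dead cells were removed with magnetic beads at both stages, and no cell type was sorted.

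The 12 deposited samples held 9 separate libraries, 5 at E16.5 and 4 at P3. At E16.5, 1 matrix had been deposited under both Jag1+/+ replicate 2 and Jag1Ndr/+ replicate 2. It entered as 1 sample, called the shared library. The remaining embryonic libraries were both homozygous replicates (Jag1Ndr/Ndr 1 and 2) and the first replicates of Jag1+/+ and Jag1Ndr/+. At P3, 5 of the matrices shared 53.4% to 100.0% of barcodes in 6 pairs, so labels and content did not match there. Library A is the matrix labelled Jag1+/+ replicate 1 and library B the matrix labelled Jag1+/+ replicate 2. Parts of both were also found in matrices labelled homozygous (19927 of the 29132 barcodes of A in replicate 1, and 16145 of the 21880 of B in replicate 2), and library B contained all 15754 barcodes of the matrix labelled Jag1Ndr/+ replicate 2 as well. The genotype of A and B is therefore unclear. Library C comprised those barcodes of Jag1Ndr/Ndr replicate 1 that library A lacked (15145 of 35072), and library D was Jag1Ndr/+ replicate 1. Any 2 of the libraries used shared at most 0.940% of barcodes. Barcodes with at least 1000 unique molecular identifiers (UMIs, each marking a captured transcript) and at most 15% mitochondrial UMIs were kept, which left 15024 to 29034 barcodes and 72777843 to 253187351 UMIs per library. A barcode held a median of 5325 to 9256 UMIs in the E16.5 libraries, against 2961 to 6235 in those of P3. Levels below are CPM, the UMIs of a gene per 1000000 UMIs of the cells summed, so they compare a gene between samples and not genes with each other. Stage could not be told apart from the software version, the gene list and the digestion, which changed with it. The lowest depth of the deposited barcodes differed as well. The minimum of 1000 UMIs removed 3414, 2522 and 2822 barcodes of libraries A, B and D. It removed 0 of library C and 0 of each E16.5 library. The mix of genotypes was also not known to be the same at both stages. The part of depth and genotype in the stage differences was not tested.

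V(D)J recombination assembles immunoglobulin genes from separate segments. The RAG1 and RAG2 proteins form the recombinase that cuts next to the segments, and terminal deoxynucleotidyl transferase, the product of Dntt, adds untemplated nucleotides at the joints. Once a heavy chain has been made, it pairs with the surrogate light chain, built from VPREB1 or VPREB2 and lambda 5 (the product of Igll1), and with the signalling chains CD79A (Ig alpha) and CD79B (Ig beta) to give the pre-B receptor. Vpreb3 encodes a related protein that binds newly made immunoglobulin chains inside the cell. Ebf1 encodes a transcription factor required for B cell specification. The fetal liver is known for B cell receptors with few added nucleotides.

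On GRCm38, Rag1 (chr2:101638282-101649501, minus strand) and Rag2 (chr2:101624718-101632529, plus strand) are neighbours separated by 5752 bases. Igll1 (chr16:16860671-16863985, minus strand) and Vpreb1 (chr16:16868403-16870843, minus strand) are neighbours as well, 4417 bases apart. Vpreb2 (chr16:17980428-17981273, plus strand) lies 1109584 bases from Vpreb1. The transcripts of Vpreb1 and Vpreb2 were 97.4% identical over 759 aligned bases and 96.5% identical over the last 200 bases. The study's labels did not say how reads matching both were counted, so the split between Vpreb1 and Vpreb2 is uncertain. Dntt lies at chr19:41029275-41059525 (plus strand), Vpreb3 at chr10:75943057-75949657 (plus strand), Cd79a at chr7:24897381-24902197 (plus strand), Cd79b at chr11:106311341-106314762 (minus strand) and Ebf1 at chr11:44617317-45008091 (plus strand).

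Promoter sequences are given for Rag1, Rag2, Dntt and Igll1, the genes on which the stage comparison turns and whose 250 bases before the start lay wholly outside the annotated gene. They are reference sequences from RefSeq on GRCm38.p6, read 5′ to 3′ on the strand of the gene. Capitals mark E-boxes (CAGNTG on either strand), the class of motif bound by E proteins such as the product of Tcf3, and the core letters CCCNNGGG (either strand) of motifs bound by EBF1.
Rag1, chr2:101649533-101649782, minus strand: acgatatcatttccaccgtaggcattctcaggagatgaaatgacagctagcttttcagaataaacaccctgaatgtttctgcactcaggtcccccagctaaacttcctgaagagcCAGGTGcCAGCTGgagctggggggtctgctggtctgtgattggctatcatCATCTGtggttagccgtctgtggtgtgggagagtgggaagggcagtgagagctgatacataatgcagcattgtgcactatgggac
Rag2, chr2:101624462-101624711, plus strand: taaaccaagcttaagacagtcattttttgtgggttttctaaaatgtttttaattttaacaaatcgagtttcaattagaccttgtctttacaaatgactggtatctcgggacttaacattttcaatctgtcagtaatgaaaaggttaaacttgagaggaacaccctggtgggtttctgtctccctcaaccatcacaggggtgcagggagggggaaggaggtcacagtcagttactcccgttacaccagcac
Dntt, chr19:41029025-41029274, plus strand: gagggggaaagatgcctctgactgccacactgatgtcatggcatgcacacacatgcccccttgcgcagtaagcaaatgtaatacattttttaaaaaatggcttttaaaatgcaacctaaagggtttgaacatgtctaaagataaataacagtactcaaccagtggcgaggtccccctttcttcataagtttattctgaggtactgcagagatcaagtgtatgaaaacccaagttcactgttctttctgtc
Igll1, chr16:16863986-16864235, minus strand: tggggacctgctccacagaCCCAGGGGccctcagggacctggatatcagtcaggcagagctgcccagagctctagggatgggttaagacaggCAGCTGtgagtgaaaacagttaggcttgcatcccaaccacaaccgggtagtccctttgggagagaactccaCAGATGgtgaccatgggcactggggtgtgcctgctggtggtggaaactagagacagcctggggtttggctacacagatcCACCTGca
The Rag1 window held 3 E-boxes, at -135 to -130, -128 to -123 and -85 to -80 before the RefSeq start. The Igll1 window held 3 E-boxes, the first bases of which were at -158, -87 and -8, and a CCCNNGGG match at -231 to -224. Neither set of letters was found in the Rag2 and Dntt windows. An E-box was present in 44.8% of 32851 promoter windows of the same length and CCCNNGGG in 11.8%. The letters do not overlap each other in the windows printed. These are matches of letters and not measured binding sites.

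At both stages, most UMIs of each of the 10 genes were found in the B-like class, with Dntt the most widely spread (74.3% of its UMIs at E16.5 and 52.5% at P3). Cells were grouped by clustering without the 10 genes, and clusters were named from marker genes (for B cells a list that included Pax5, Ighm and Ms4a1). B-like clusters contained 9517 barcodes at E16.5 and 11931 at P3. With the libraries in the order Jag1+/+, shared, Jag1Ndr/+ and the pair of Jag1Ndr/Ndr replicates, they made up 9.93%, 9.50%, 7.57%, 10.0% and 6.21% of E16.5 barcodes. In libraries A to D, they made up 18.0%, 19.5%, 11.4% and 17.1% of P3 barcodes. For each gene other than Dntt, B-like barcodes held 81.5% to 91.0% of all its E16.5 UMIs and 75.7% to 84.5% of all its P3 UMIs. The mean level was highest in the B-like class for 19 of the 20 combinations of gene and stage, the exception being Dntt at P3.

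Detection per barcode was compared after each barcode had been thinned to 2000 UMIs, and erythroid-like barcodes, which should lack these genes, served as the background. Rag1 was detected in 19.9% to 36.6% of B-like barcodes at E16.5 and in 11.0% to 13.9% at P3. In erythroid-like barcodes, the corresponding shares were 0.300% to 0.875% and 0.0623% to 0.150%. Igll1 was detected in 66.3% to 70.5% of B-like barcodes at E16.5 and in 7.13% to 21.7% at P3, and in 0.725% to 1.43% and 0.187% to 0.475% of erythroid-like barcodes. The thinning left out 850, 889, 0 and 1320 B-like barcodes of libraries A to D and none at E16.5. Unthinned, 82.1% to 88.4% of E16.5 and 7.77% to 28.2% of P3 B-like barcodes contained an Igll1 UMI. Median depths before thinning were 5928.0 to 8032.0 UMIs in B-like barcodes at E16.5 and 2255.0 to 4813.0 at P3, and 4881.5 to 9179.0 and 2540.0 to 5024.0 in erythroid-like barcodes.

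The B-like barcodes also carried RNA of genes on the marker lists of other cell types, and its level differed by stage for several lists. Whether it came from other cells or from the B-like cells themselves was not tested. The 8 erythroid markers, globin genes included, summed to 145316 to 243623 CPM in B-like barcodes at E16.5 and 68016 to 117486 at P3, and none was at 0. The 8 hepatocyte markers summed to 1163 to 1812 CPM at E16.5 and 213 to 519 at P3, and the 7 stem and progenitor markers to 30.5 to 66.1 and 11.9 to 15 CPM. The 6 plasmacytoid dendritic cell markers summed to 232 to 379 CPM at E16.5 and 136 to 161 at P3. Other lists were higher at P3: the 8 macrophage markers summed to 46.6 to 52.9 CPM at E16.5 and 142 to 272 at P3, and the 7 conventional dendritic cell markers to 29.9 to 39.1 and 117 to 461 CPM. So were the 7 mesenchymal (7.88 to 15.7 and 21.4 to 43.1 CPM), the 6 endothelial (73.5 to 88.3 and 98.3 to 115) and the 6 basophil and mast cell markers (0.871 to 2.25 and 2.61 to 3.19). Cd209a and Fcer1a were at 0 at E16.5, and no other gene of these lists was at 0. The part of these cell types in the stage differences of the 10 genes was not tested. The 8 T cell markers summed to 10.2 to 12.6 CPM at E16.5, where Cd3e and Cd8a were at 0, and to 9.53 to 12.2 at P3. The 12 B cell markers were all present and summed to 1357 to 2519 CPM at E16.5 and 7621 to 10264 at P3.

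The stages were compared with edgeR's quasi-likelihood test on counts summed over the B-like barcodes of each library (5 libraries against 4), with Benjamini-Hochberg adjustment over 11672 genes. All 10 genes passed an adjusted p of 0.05, 7 lower and 3 higher at P3. The background was high, since 52.4% of all genes tested passed (26.7% higher and 25.6% lower at P3), so the count of 10 says little without the sizes. The share of all genes with no overlap between the stages was not computed, so overlap is given below as a description only. The median log2 fold change was -1.44 over the 10 genes and 0.01 over all genes.

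**Figure D1:**
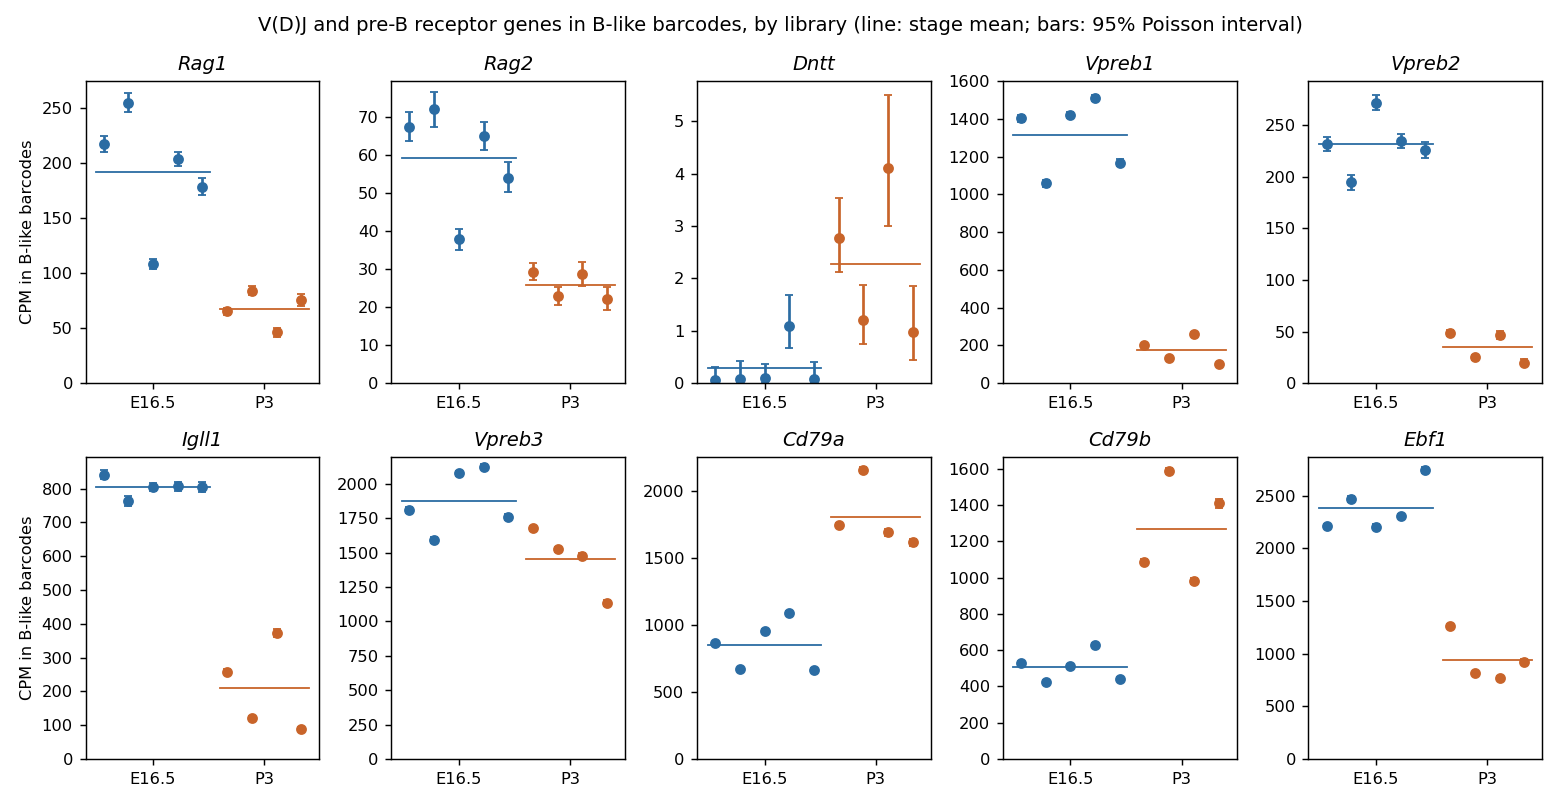
CPM of each gene in B-like barcodes, with 1 point per library (blue, 5 E16.5 libraries; orange, 4 P3 libraries), bars for the exact 95% Poisson interval and a line at the stage mean. Rag1, Rag2, Vpreb1, Vpreb2, Igll1 and Ebf1 have no overlap between stages on the lower side, Cd79a and Cd79b none on the higher side, and Dntt and Vpreb3 overlap. The share of all genes without overlap was not computed.

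Summed over the B-like class, the recombinase genes fell together. Rag1 stood at 217, 254, 108, 203 and 178 CPM in the B-like barcodes of the 5 E16.5 libraries, in the order given above. At P3 it stood at 65.2, 83.9, 46.0 and 75.4 CPM in libraries A to D. Every P3 library was below every E16.5 library, and the mean fell from 192 ± 54.3 (SD, n = 5) to 67.6 ± 16.3 CPM (n = 4). The fitted change was 3.16-fold (log2 -1.66, standard error 0.189, adjusted p = 3.23e-05, edgeR). Rag2 stood at 67.4, 72.0, 37.8, 65.0 and 54.1 CPM at E16.5 and at 29.2, 23.0, 28.6 and 22.1 CPM at P3. These groups did not overlap either, and Rag2 was 2.56-fold lower at P3 (log2 -1.35, standard error 0.152, adjusted p = 3.01e-05, edgeR). Jag1Ndr/+ replicate 1 was the lowest E16.5 library for both genes.

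Within B-like barcodes, the recombinase genes tended to be detected together. After thinning, Rag2 was detected in 10.3% to 18.6% of E16.5 barcodes with a Rag1 UMI and in 5.96% to 12.1% of those without, and the share was higher with Rag1 in 5 of 5 libraries. At P3 the shares were 9.84% to 15.3% and 3.84% to 5.97%, higher with Rag1 in 4 of 4 libraries. Most barcodes with a Rag1 UMI had no Rag2 UMI at this depth.

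Dntt moved in the opposite direction, and its values rest on few molecules. The 5 E16.5 libraries contained 4, 1, 4, 24 and 2 Dntt UMIs in all, of which 1, 1, 2, 21 and 1 were in B-like barcodes. Libraries A to D contained 124, 31, 89 and 19, of which 64, 20, 45 and 9 were in B-like barcodes. Jag1Ndr/Ndr replicate 1 thus held most of the E16.5 molecules, and library D the fewest of the P3 molecules.

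In CPM of B-like barcodes, Dntt stood at 0.0555, 0.0749, 0.102, 1.10 and 0.0716 at E16.5. It stood at 2.77, 1.21, 4.10 and 0.979 in libraries A to D. The groups overlapped, because Jag1Ndr/Ndr replicate 1 at E16.5 was above library D. Dntt rose 6.57-fold (log2 2.72, standard error 0.739, 95% interval 1.11 to 4.32, adjusted p = 0.00873, edgeR), from a mean of 0.280 ± 0.457 (SD, n = 5) to 2.27 ± 1.46 CPM (n = 4). Without E16.5 Jag1Ndr/Ndr replicate 1, the log2 change was 4.58 (adjusted p = 0.000197), so that library set the size of the change but not its direction.

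**Figure D2:**
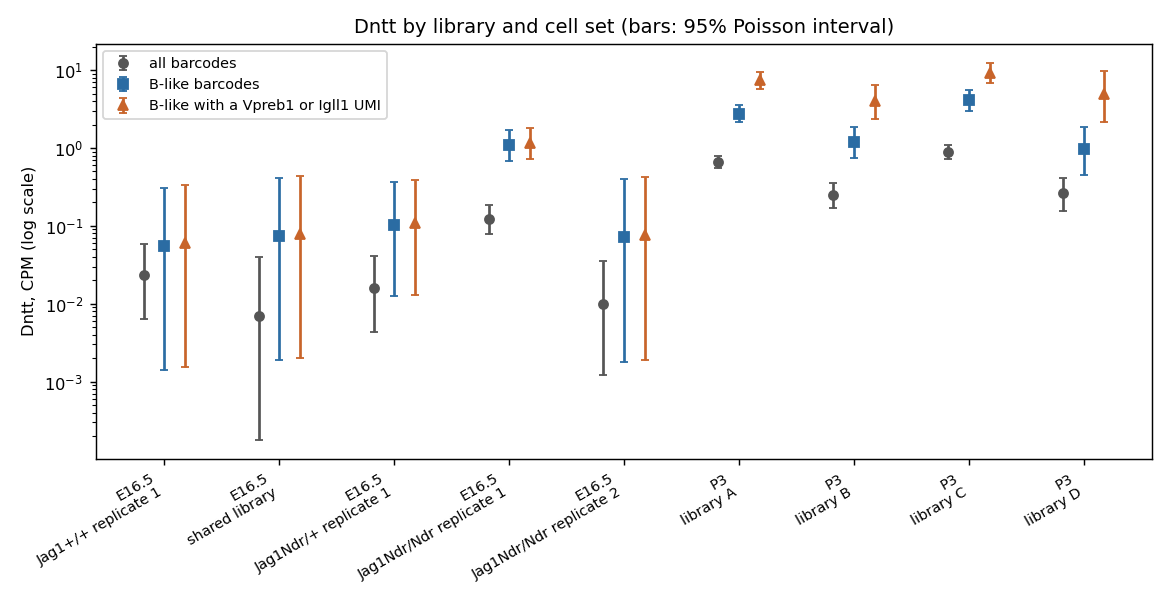
Dntt in CPM on a log axis for each of the 9 libraries, over all barcodes (grey circles), B-like barcodes (blue squares) and B-like barcodes with a Vpreb1 or Igll1 UMI (orange triangles), with exact 95% Poisson intervals. E16.5 Jag1Ndr/Ndr replicate 1 stands apart from the other E16.5 libraries in all 3 sets, and in B-like barcodes with a Vpreb1 or Igll1 UMI the 4 P3 libraries (4.04 to 9.28) lie above it (1.17).

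In sums over all barcodes, which stand for the whole liver suspension, Dntt was at 0.0232, 0.00705, 0.0158, 0.124 and 0.00990 CPM at E16.5 and at 0.657, 0.247, 0.896 and 0.261 CPM at P3. Here every P3 library was above every E16.5 library (log2 3.13, standard error 0.763, adjusted p = 0.00524, edgeR), and the log2 change was 4.50 without E16.5 Jag1Ndr/Ndr replicate 1 (adjusted p = 0.000313). In such sums, fewer cells of a type and less RNA per cell cannot be told apart. Of the 10 genes, 9 passed in whole liver (3 higher, 6 lower), against 54.0% of 14504 genes tested (27.6% higher, 26.4% lower). Vpreb3 was the exception, with a log2 change of -0.47 (adjusted p = 0.113, 95% interval -0.98 to 0.05). Its sign depended on scaling: with library size only it was 0.19 (adjusted p = 0.372), and its raw mean was 189 ± 29.1 CPM at E16.5 and 219.8 ± 38.7 at P3.

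Scaling to library size only, in place of TMM, moved the median log2 change of all genes from 0.02 to 0.61 in whole liver and from 0.01 to 0.15 in B-like barcodes. The share of called genes that were higher at P3 went from 51.1% to 85.7% and from 51.1% to 63.8%. The 10 genes gave the same number of calls in each direction under both scalings in these sets.

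The surrogate light chain genes showed the steepest falls. In B-like barcodes, Vpreb1 stood at 1403, 1059, 1420.2, 1512 and 1168 CPM at E16.5 and at 204, 131, 259 and 103 CPM at P3. The change was 8.61-fold (log2 -3.11, standard error 0.309, adjusted p = 1.33e-05, edgeR), with no overlap. Vpreb2, its near-identical relative, stood at 232, 195, 272, 235 and 226 CPM and at 49.0, 25.0, 46.6 and 20.0 CPM, a 7.53-fold fall (adjusted p = 1.99e-05, edgeR). Igll1 was even across the E16.5 libraries, at 842, 764, 806, 807 and 806 CPM, and uneven at P3, at 258, 121, 372 and 88.0 CPM. It fell 4.33-fold (log2 -2.11, standard error 0.375, adjusted p = 0.00064, edgeR). For all 3 genes, libraries A and C lay above libraries B and D.

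Vpreb3, which acts inside the cell and is not part of the surface receptor, changed little by comparison. It stood at 1808, 1593, 2075, 2125 and 1756 CPM at E16.5 and at 1675, 1523, 1474 and 1136 CPM at P3. The groups overlapped (the shared library was below library A), and the fitted fall of 1.48-fold just passed the test (log2 -0.57, adjusted p = 0.0319, edgeR). The call was lost when Jag1Ndr/+ replicate 1 or Jag1Ndr/Ndr replicate 1 of E16.5, or library B, C or D, was left out, with log2 changes of -0.44, -0.52, -0.59, -0.58 and -0.46 (adjusted p 0.0570 to 0.0906).

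The signalling chains rose. Cd79a stood at 864, 668, 957, 1092 and 663 CPM in B-like barcodes at E16.5 and at 1749, 2158, 1693 and 1619.5 CPM at P3. Cd79b stood at 527, 424, 513, 628 and 443 CPM and at 1088, 1588, 982 and 1409 CPM. Neither gene overlapped between stages, and the changes were 1.83-fold for Cd79a (log2 0.88, standard error 0.215, adjusted p = 0.00492) and 2.16-fold for Cd79b (log2 1.11, standard error 0.193, adjusted p = 0.000562, both edgeR). In whole liver, Cd79a rose from 83.6 ± 23.5 to 273 ± 47.2 CPM (log2 1.01, adjusted p = 0.00907). Without libraries A and B, whose genotype is unclear, that change was 0.83 and no longer passed (adjusted p = 0.0704).

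Ebf1, the transcription factor of the set, fell. It stood at 2214, 2471, 2207, 2309.6 and 2743 CPM in B-like barcodes at E16.5 and at 1264, 815, 768 and 925 CPM at P3, with no overlap. The change was 2.87-fold (log2 -1.52, standard error 0.190, adjusted p = 6.19e-05, edgeR). Despite this, Ebf1 was detected in 67.0% to 81.7% of thinned B-like barcodes at P3 (94.9% to 96.2% at E16.5), against 1.12% to 1.50% of erythroid-like barcodes at P3.

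**Figure D3:**
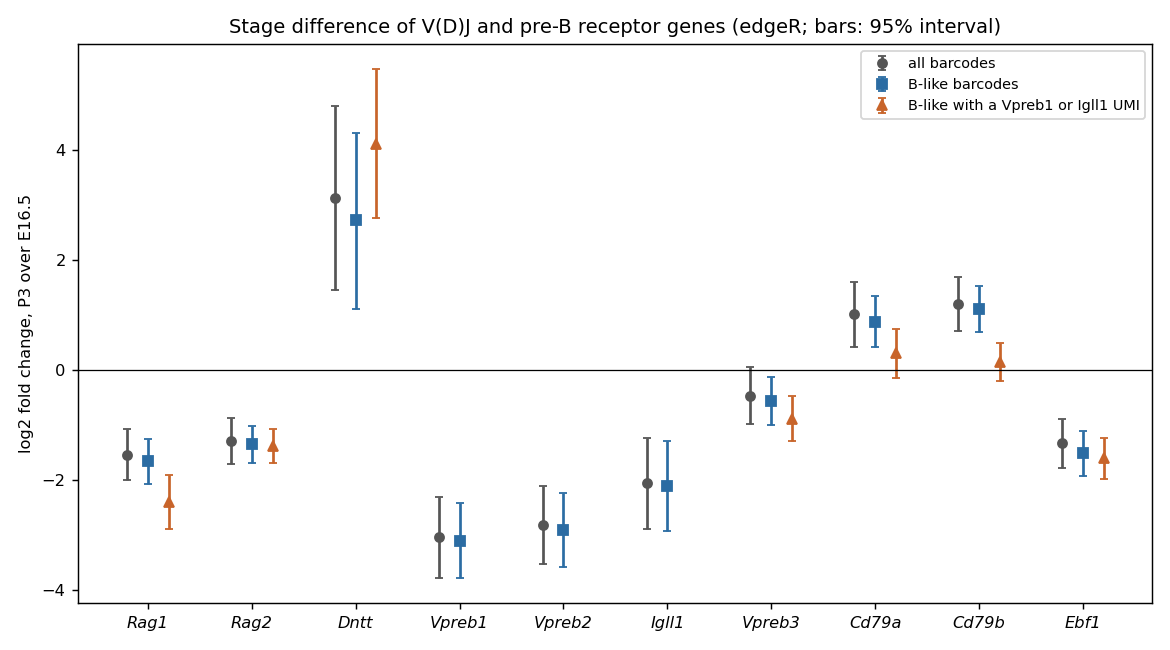
Log2 fold change of P3 over E16.5 for each gene with its 95% interval (edgeR), over all barcodes (grey circles), B-like barcodes (blue squares) and B-like barcodes with a Vpreb1 or Igll1 UMI (orange triangles). Dntt is the gene with the largest rise in each set (3.13, 2.72 and 4.12), and the intervals of Cd79a and Cd79b include 0 in the last set.

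B-like barcodes with a surrogate light chain transcript were a different share of the B-like class at each stage. At least 1 UMI of Vpreb1 or Igll1 was found in 88.7%, 93.8%, 92.8%, 85.6% and 92.3% of B-like barcodes at E16.5 and in 19.0%, 12.3%, 32.4% and 9.63% in libraries A to D. These shares are not thinned, and the P3 libraries were shallower. Among erythroid-like barcodes, also unthinned, Vpreb1 was found in 3.56% to 8.24% of those at E16.5 and 0.108% to 0.816% of those at P3, and Igll1 in 1.86% to 3.91% and 0.259% to 0.915%. After thinning, Vpreb1 was found in 75.2% to 80.4% of B-like barcodes at E16.5 and 7.17% to 18.0% at P3, against 1.00% to 3.02% and 0.0288% to 0.375% of erythroid-like barcodes. The barcodes with a Vpreb1 or Igll1 UMI numbered 1515 to 2041 per library at E16.5 and 280 to 738 at P3. The other 7 genes were compared again within them. Of the 7, 5 passed (1 higher, 4 lower), against 52.9% of 11246 genes tested (25.9% higher, 27.0% lower).

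In these barcodes the Dntt difference was largest and the differences of the Ig alpha and Ig beta genes did not pass with TMM scaling. Dntt stood at 0.0603, 0.0785, 0.108, 1.17 and 0.0758 CPM at E16.5 and at 7.41, 4.04, 9.28 and 4.97 CPM at P3. The stages did not overlap, and Dntt was 17.4-fold higher at P3 (log2 4.12, standard error 0.627, 95% interval 2.76 to 5.47, adjusted p = 0.000147, edgeR). Without E16.5 Jag1Ndr/Ndr replicate 1, the log2 change was 5.91 (adjusted p = 5.4e-07). In libraries A to D, this set kept 63 of 64, 18 of 20, 45 of 45 and 8 of 9 Dntt UMIs of the B-like class. It kept only 19.0%, 12.3%, 32.4% and 9.63% of the B-like barcodes there, against 85.6% to 93.8% at E16.5. The choice of barcodes thus raised Dntt CPM mainly at P3, and the larger change is no separate support for a rise.

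Rag1 stood at 224, 258, 109.7, 212 and 179.7 CPM in the same barcodes at E16.5 and at 35.6, 31.8, 36.5 and 75.7 CPM at P3, a 5.28-fold fall (log2 -2.40, adjusted p = 3.75e-06, edgeR). Library D was above the other P3 libraries and still below every E16.5 library. At E16.5 these barcodes held 3708 of 3907, 3283 of 3398, 2027 of 2117, 3605 of 3889 and 2372 of 2492 Rag1 UMIs of the B-like class. In libraries A to D they held 303 of 1508, 142 of 1382, 177 of 504 and 122 of 693. Most Rag1 UMIs of the P3 B-like class thus lay outside this set, and the part of this in the fall was not tested. Rag2 fell 2.61-fold, from 61.4 ± 14.2 (SD, n = 5) to 27.1 ± 3.27 CPM (n = 4, adjusted p = 6.52e-06, edgeR). Ebf1 fell from 2437 ± 225 to 941 ± 199.5 CPM (log2 -1.61, adjusted p = 9.98e-06) and Vpreb3 from 1916 ± 232 to 1235 ± 144 CPM (log2 -0.89, adjusted p = 0.00154).

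Cd79a was at 866 ± 192 CPM in these barcodes at E16.5 and at 1270.3 ± 137 at P3, with a fitted log2 difference of 0.30 (adjusted p = 0.25, edgeR) and a 95% interval of -0.15 to 0.75. In CPM, every P3 library (1139.9 to 1464) was above every E16.5 library (676 to 1123) for Cd79a. For Cd79b the stages overlapped, with library A (582) below E16.5 Jag1Ndr/Ndr replicate 1 (602). The interval for Cd79b was -0.20 to 0.49 (log2 0.15, adjusted p = 0.455). Differences of the size found over all B-like barcodes (0.88 and 1.11) lie outside these intervals. With library size only, both passed (Cd79a 0.52, adjusted p = 0.0129; Cd79b 0.38, adjusted p = 0.0267), and the median of all genes moved from -0.01 to 0.17 and the share of calls that were higher from 49% to 64.2%. Whether the difference between the 2 cell sets is itself larger than the spread was not tested. The 3 surrogate light chain genes are not tested here, because Vpreb1 and Igll1 chose the barcodes and Vpreb2 may share reads with Vpreb1.

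Vpreb1 and Igll1 were mostly detected in the same barcodes. After thinning, Vpreb1 was found in 87.3% to 93.3% of B-like barcodes with an Igll1 UMI at E16.5 and in 39.6% to 56.0% of those without. At P3 the shares were 59.7% to 64.2% and 2.72% to 5.20%. The share was higher with Igll1 in all 9 libraries. Dntt at P3 followed them: 73 of the 77 B-like barcodes with a Dntt UMI had Vpreb1 (94.8%), against 13.4% of other B-like barcodes, and 72 had Igll1 (93.5% against 13.6%). Rag1 was found in 59.7% of these 77 and in 21.0% of the others, and Ebf1 in all 77. These shares are not thinned, and the genes set beside Dntt here were chosen after its values had been seen.

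At resolution 1, the B-like barcodes formed a single cluster at E16.5 and 4 clusters at P3, over which the 10 genes were spread unevenly. At resolution 2, those of E16.5 formed 3 clusters (2602, 4109 and 2786 barcodes), the first led by Igkc and Ighm with 33.4% called doublets. These values are a description, since the clusters were made from the same cells. A P3 cluster led by Myl4, Bfsp2 and Il7r (2575 barcodes) had the highest mean levels of Vpreb1 (419 ± 81.8 CPM, SD over 4 libraries), Igll1 (497 ± 209), Vpreb2 (87.7 ± 24.5) and Dntt (4.33 ± 2.89) among the P3 clusters. It also had the highest level of Top2a, a gene of dividing cells (1509 ± 150.3 CPM). A cluster led by Arl5c and Atp1b1, with Il7r and Sox4 among its leading genes (3134 barcodes), had the highest Rag1 (242 ± 89.6 CPM), Rag2 (66.4 ± 9.91), Vpreb3 (3111 ± 278) and Ebf1 (1973 ± 503). There, Vpreb1 was at 90.3 ± 47.6 CPM and Dntt at 1.96 ± 1.03. The mean Rag1 and Rag2 of this P3 cluster were not below those of the single E16.5 cluster (192 ± 54.3 and 59.3 ± 13.7 CPM). The part of the P3 clusters in the stage differences was not tested.

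The third, led by Igkc and Ms4a1, genes of B cells with a finished receptor (3376 barcodes), had Rag1 at 4.86 ± 1.36 CPM, Rag2 at 0.930 ± 0.633, Vpreb1 at 3.98 ± 1.61 and Igll1 at 2.78 ± 1.38. No Dntt UMI was found in it in any of the 4 libraries, and 0 of 3376 barcodes allows a share of up to 0.0889% with a UMI. Cd79a was highest there (3009 ± 371 CPM), and Vpreb3 remained at 1087 ± 441. The last cluster (2846 barcodes) had Iglc1, Igkc, Ighm and Ms4a1 as its leading genes, and so shared Igkc and Ms4a1 with the cluster before it. It had a mean of 203727 ± 19774 CPM of the globin gene Hbb-bs, and 32.1% of its barcodes were called doublets. It held Rag1 at 47.6 ± 7.19 CPM and Igll1 at 90.0 ± 62.7. In the single E16.5 cluster, Hbb-bs was at 138369 ± 37592 CPM and 15.3% of barcodes were called doublets.

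**Figure D4:**
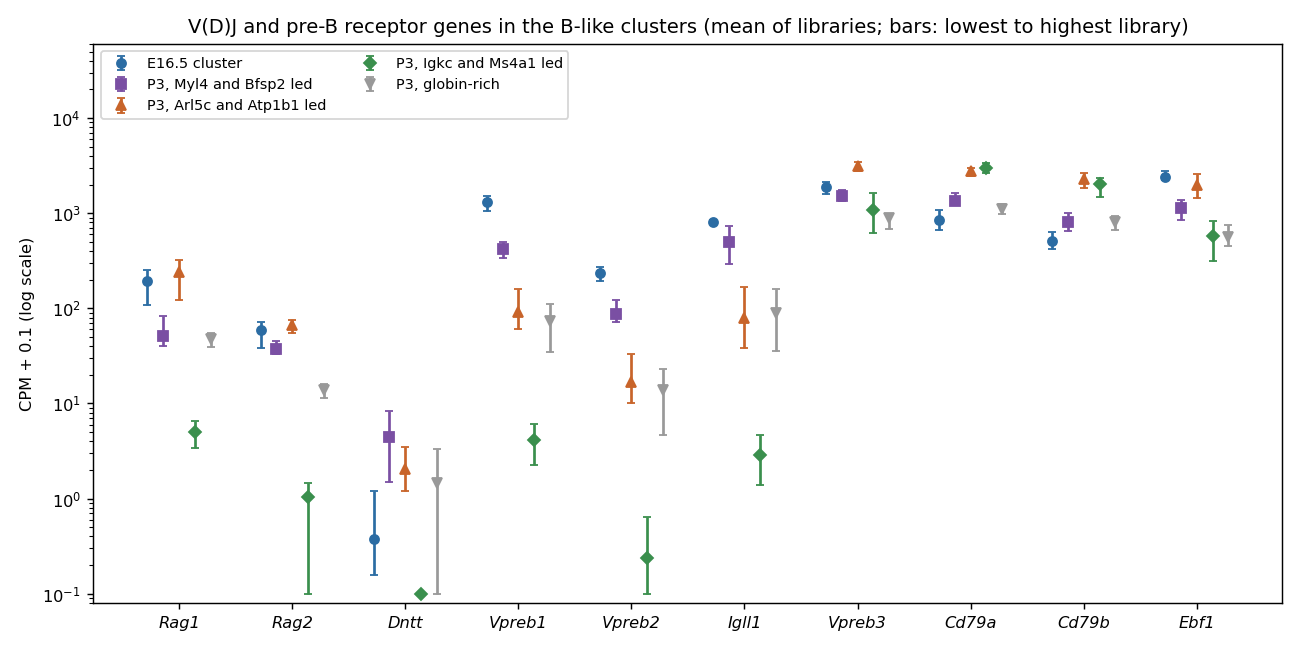
Mean CPM plus 0.1 (log axis) of each gene in the single B-like cluster of E16.5 and the 4 of P3, with bars from the lowest to the highest library. The P3 cluster led by Myl4 and Bfsp2 has the highest P3 levels of Vpreb1, Vpreb2, Igll1 and Dntt, the one led by Arl5c and Atp1b1 those of Rag1 and Rag2, and the one led by Igkc and Ms4a1 (green diamonds, apart from the globin-rich cluster in grey) has the lowest P3 levels of all of these.

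The clusters took different shares of each P3 library. The cluster led by Myl4 and Bfsp2 made up 21.2%, 16.2%, 38.4% and 18.5% of B-like barcodes in libraries A to D. The cluster led by Igkc and Ms4a1 made up 25.5%, 35.2%, 11.5% and 33.9%. Library C was thus the richest in the former and the poorest in the latter, and it had the highest CPM of Vpreb1, Igll1 and Dntt over all B-like barcodes. The lowest UMI count of any B-like barcode was 2400 in library C and 1000, 1001 and 1000 in libraries A, B and D. With at least 2000 UMIs required, the Myl4 and Bfsp2 cluster took 26.4%, 21.4%, 38.4% and 26.9%, and the Igkc and Ms4a1 cluster 21.6%, 34.6%, 11.5% and 18.8%. The cluster led by Arl5c and Atp1b1 took 30.5%, 33.2%, 16.4% and 18.3% of libraries A to D, and 23.6%, 24.0%, 16.4% and 8.87% with that minimum. The globin-rich cluster took 22.8%, 15.3%, 33.8% and 29.4%, and 28.4%, 20.0%, 33.8% and 45.5% with it. The shares of library D thus depended on the UMI minimum.

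Dntt was also found outside the B-like class at P3. Of its 263 UMIs, 138 (52.5%) were in B-like barcodes and 77 (29.3%) in a cluster led by the basophil and mast cell genes Prss34, Mcpt8 and Cpa3, with Cd34, Gata2 and Mpo among its leading genes. Mean Dntt there was 4.80 ± 3.83 CPM (n = 4), above the 2.27 ± 1.46 CPM of the B-like class. The 26 Dntt-positive barcodes of that cluster differed from the remaining 1451: Flt3 was found in 76.9% against 33.4%, Ebf1 in 80.8% against 13% and Rag1 in 42.3% against 2.76%. Mcpt8, Cpa3 and Gata2 were found in 1 each (3.85%), against 19.2%, 22.0% and 27.2%. The shares lay closer together for Mpo (84.6% against 72.6%) and Cd34 (61.5% against 54.8%). Igll1 was found in 0 of the 26, which allows a share of up to 11.5%, against 2.00%. With a finer clustering (resolution 2), 36.1% of the P3 Dntt UMIs were in unnamed clusters and the basophil-and-mast-like cluster kept 1 UMI. The name of the cluster thus did not hold for the barcodes in which Dntt was found.

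Most Dntt-positive B-like barcodes carried a single molecule. In E16.5 Jag1Ndr/Ndr replicate 1, 15 of 18 had 1 UMI and none had 3 or more. In libraries A to D, 18 of 31, 10 of 13, 15 of 25 and 7 of 8 had 1 UMI, and 4, 1, 5 and 0 had 3 or more. Unthinned, 0.979% of the B-like barcodes of E16.5 Jag1Ndr/Ndr replicate 1 had a Dntt UMI. The shares were 0.800%, 0.379%, 1.46% and 0.275% in libraries A to D, so only library C was above it. In the other E16.5 libraries they were 0.0511% to 0.0910%. The highest count in a B-like barcode was 16, in library A. Of the 18 barcodes of Jag1Ndr/Ndr replicate 1, 17 also had a Vpreb1 or Igll1 UMI, as had 30 of 31, 11 of 13, 25 of 25 and 7 of 8 in libraries A to D. None of the 21 Dntt-positive barcodes of Jag1Ndr/Ndr replicate 1 had the sequence of a barcode kept at P3. After thinning, Dntt was detected in 0% to 0.272% of B-like barcodes at E16.5 and in 0.0629% to 0.815% at P3, close to the level of 1 UMI, and in 0 of 20000 erythroid-like barcodes at E16.5 (which allows up to 0.0150%) and 0 of 14682 at P3 (up to 0.0204%). These limits and the intervals on CPM cover counting error only.

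Rag1 and Rag2 differed in opposite directions between B-like barcodes with and without a UMI of Mki67 or Top2a, genes transcribed in dividing cells. Each barcode was thinned to 2000 UMIs, and each of the 9 libraries served as its own pair. Barcodes with such a UMI made up 80.3%, 89.7%, 75.2%, 76.3% and 84.6% of B-like barcodes at E16.5 and 49.9%, 47.1%, 74.9% and 73.6% in libraries A to D. Before thinning, the shares were 98.4%, 98.7%, 97.3%, 97.1% and 98.7%, and 49.2%, 43.9%, 82.7% and 53.9%. Most E16.5 barcodes counted as without (371, 201, 545, 436 and 252) thus had such a UMI before thinning. At E16.5 the split therefore cannot be read as dividing against other cells. The p-values below count the 5 E16.5 libraries together with the 4 of P3. They compare barcodes with and without such a UMI after thinning, and the P3 libraries were not tested alone. How far a UMI of either gene marks a dividing cell was not tested.

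Rag1 was lower with such a UMI in 9 of 9 libraries. At E16.5 it stood at 379, 378, 128, 320.0 and 216 CPM without and at 257, 260.1, 117, 277 and 201 CPM with Mki67 or Top2a. At P3 it stood at 109.8, 133, 75.2 and 75.2 CPM without and at 69.3, 81.5, 59.9 and 68.4 CPM with them. The mean difference in log2(CPM + 10) was -0.35 ± 0.228 (SD, n = 9), with an exact two-sided sign-flip permutation p of 0.00391, the smallest that 9 libraries can give, and 0.0195 after Benjamini-Hochberg adjustment over the 10 genes. The size depended on the setting. It was -0.74 without thinning, with Rag1 lower in 8 of 9 libraries (adjusted p = 0.0156), but only 31, 25, 59, 54 and 21 E16.5 barcodes then had no Mki67 or Top2a UMI. It was -0.72 within barcodes that had a Vpreb1 or Igll1 UMI (lower in 9 of 9, adjusted p = 0.0273).

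Rag2 was higher with such a UMI in 9 of 9 libraries. At E16.5 it stood at 72.8, 57.2, 28.4, 65.4 and 47.6 CPM without and at 83.8, 73.4, 40.2, 85.2 and 54.7 CPM with Mki67 or Top2a. At P3 it stood at 25.1, 18.2, 27.8 and 8.35 CPM without and at 53.0, 33.8, 40.4 and 31.2 CPM with them. The mean difference was 0.49 ± 0.331 (SD, n = 9; exact permutation p = 0.00391, adjusted 0.0195). It was smaller with a pseudocount of 50 (0.26, higher in 9 of 9 libraries, adjusted p = 0.0195) and without thinning (0.30, higher in 8 of 9, adjusted p = 0.0156). Within barcodes that had a Vpreb1 or Igll1 UMI, it was 0.21 and did not pass (adjusted p = 0.0957).

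**Figure D5:**
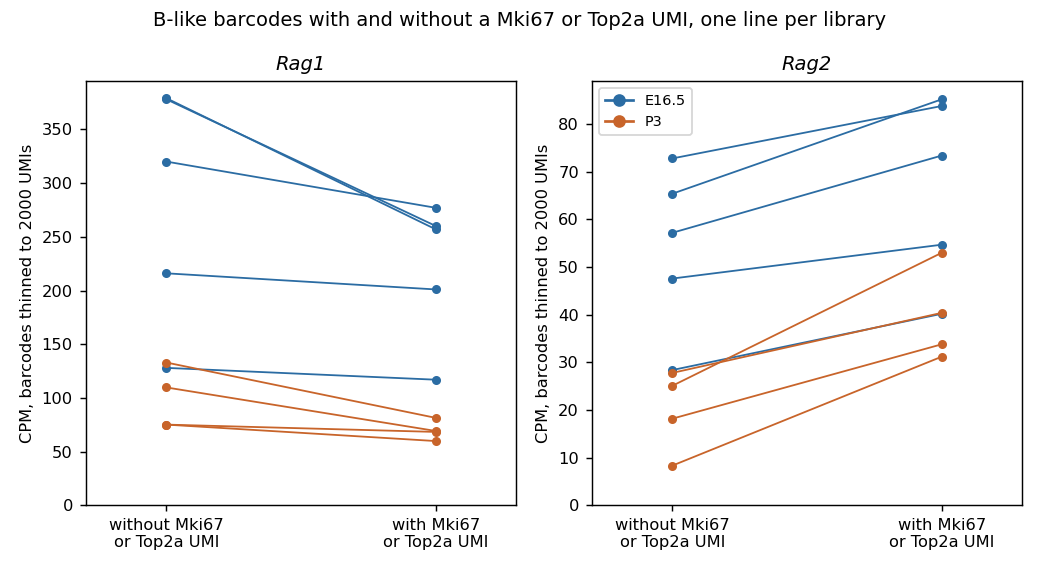
CPM of Rag1 (left) and Rag2 (right) in B-like barcodes thinned to 2000 UMIs, without and with a Mki67 or Top2a UMI, with 1 line per library (blue, E16.5; orange, P3). All 9 lines fall for Rag1 and all 9 rise for Rag2.

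None of the other 8 genes passed in this comparison as fitted over all 9 libraries. The nearest were Cd79b (-0.36, lower in 8 of 9 libraries, adjusted exact permutation p = 0.117), Vpreb1 (-0.18, lower in 8 of 9, adjusted p = 0.137) and Cd79a (-0.30, lower in 7 of 9, adjusted p = 0.164). Without thinning, where the E16.5 barcodes with no such UMI were few, 6 genes passed (1 higher, 5 lower), and without library B 4 did. The share of all genes that would pass was not computed for this comparison, so these counts cannot be set against a background. Cd79b passed without the E16.5 shared library (-0.43, adjusted p = 0.0260), and Vpreb3 within barcodes that had a Vpreb1 or Igll1 UMI (-0.35, adjusted p = 0.0273). The P3 clusters differ both in Rag1 and in Top2a, and their part in these differences was not tested.

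No difference between Jag1Ndr/Ndr and the other genotypes was detected for these genes at E16.5. The comparison set the 2 homozygous libraries against the other 3. In B-like barcodes, 9 of the 10 genes were tested and 0 were called, against 0% of 12607 genes (edgeR; the unadjusted p was under 0.05 for 147, and 0 were called by DESeq2). With no filter on low counts, 20 of 19491 genes were called higher and 15 lower there, and 0 of the 10. In whole liver 0 of 9 were called, against 0% of 16262 genes (166 at an unadjusted p under 0.05, DESeq2 5). None of the 9 genes had an unadjusted p under 0.05 in either set.

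Fitted log2 differences lay between -0.09 and 0.11 over both cell sets, but their intervals were wide. Over the alternatives, the values of the 9 genes ran from -0.42 to 0.36 in B-like barcodes and from -0.70 to 0.59 in whole liver. In B-like barcodes the 95% interval was -0.53 to 0.58 for Rag1, -0.59 to 0.51 for Igll1 and -0.79 to 0.82 for Cd79a, so changes of less than about these sizes could not be seen. Dntt did not pass the filter on low counts there. Its 21 UMIs in Jag1Ndr/Ndr replicate 1 were not matched by Jag1Ndr/Ndr replicate 2, which had 1. Without the filter, its log2 difference in B-like barcodes was 2.85 (adjusted p = 0.284, edgeR).

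At P3 library C was the only library with just the homozygous label and library D the only one with just the heterozygous label, so these values have no replicate check. In B-like barcodes, the log2 ratio of C to D was 2.08 for Igll1 (372 and 88.0 CPM), 2.07 for Dntt (4.10 and 0.979), 1.33 for Vpreb1 (259 and 103) and 1.22 for Vpreb2 (46.6 and 20.0). It was 0.37 for Rag2, 0.38 for Vpreb3 and 0.06 for Cd79a. For Rag1, Cd79b and Ebf1 it was -0.71, -0.52 and -0.27. Libraries A and B lay between C and D for Dntt, Vpreb1 and Igll1. With at least 2000 UMIs required in both libraries, a setting chosen after seeing the data, the ratio was 2.00 for Igll1, 2.34 for Dntt, 1.39 for Vpreb1, 1.42 for Vpreb2 and 0.51 for Rag2. The others moved more: Rag1 to -0.21, Cd79b to -0.05, Cd79a to 0.47, Vpreb3 to 0.77 and Ebf1 to 0.03. The lower level of Rag1, Cd79b and Ebf1 in library C thus did not hold or shrank under this setting. Library D held 17.1% B-like barcodes and library C 11.4%.

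Other genes of the pathway were followed in lists. For all genes in B-like barcodes, the median was 0.01, with 26.7% called higher and 25.6% called lower, and a count near these shares says nothing about a list. Of 13 end-joining genes, which seal the cut segments, 6 were higher and 2 lower at P3 in B-like barcodes (median log2 0.44), against 52.4% of all genes called in either direction. Polm, a polymerase related to terminal transferase, rose from 3.64 ± 1.57 to 28.4 ± 4.73 CPM (log2 2.80, adjusted p = 5.81e-06, edgeR), and its change was 2.05 in barcodes with a Vpreb1 or Igll1 UMI (adjusted p = 1.51e-05). Hmgb2, a chromatin protein that assists the recombinase, fell by 1.00 on the log2 scale (adjusted p = 0.00012).

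Of 17 genes of pre-B receptor signalling, 12 were higher and 1 lower (median 0.91). Blk, a kinase activated by the receptor, rose from 11.7 ± 5.90 to 111 ± 4.50 CPM (log2 3.08, adjusted p = 6.81e-06, edgeR), and Ccnd2, a cyclin, rose from 35.1 ± 9.88 to 164 ± 29.2 CPM (log2 2.09). Fyn, another kinase of that family, was the gene that fell (log2 -1.24, adjusted p = 3.28e-05). In barcodes with a Vpreb1 or Igll1 UMI, 9 were higher and 4 lower (median 0.37), where 25.9% of all genes were called higher and 27.0% lower. Bcl6, a repressor induced by the pre-B receptor in some settings, fell there from 4.95 ± 1.49 to 1.02 ± 0.839 CPM (adjusted p = 0.000641).

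Of 18 early B transcription factors, 5 were higher and 6 lower (median 0.04), which is near the shares of all genes (26.7% and 25.6%). Ikzf3, which acts as pre-B cells stop dividing, rose from 11.9 ± 5.53 to 124 ± 48.1 CPM (log2 3.22, adjusted p = 1.39e-05, edgeR), whereas Lef1, a Wnt effector of early B cells, fell from 338 ± 70.2 to 77.2 ± 21.2 CPM (log2 -2.26, adjusted p = 6.09e-06). Of 12 early lymphoid cytokine and receptor genes, 5 were higher and 3 lower (median 0.20), with the share called lower near that of all genes. Kit, the stem cell factor receptor, fell from 35.4 ± 12.7 to 5.53 ± 1.09 CPM (log2 -2.80, adjusted p = 2.5e-06).

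Of 15 later B cell genes, 14 were higher and 0 lower (median 4.20), against 26.7% and 25.6% of all genes, led by Fcmr, the receptor for IgM (log2 7.70, adjusted p = 3.52e-07, edgeR). Of 9 genes of the fetal B program, 2 were higher and 5 lower (median -1.31), against 26.7% and 25.6% of all genes. Igf2bp1 fell from 15.9 ± 7.15 to 0.913 ± 0.766 CPM (log2 -4.31, adjusted p = 2.46e-05) and Lin28b, which keeps fetal patterns of lymphocyte production, from 36.4 ± 7.78 to 11.7 ± 0.141 CPM (log2 -1.77, adjusted p = 1.14e-06). Arid3a, a factor placed in the same program, rose from 53.5 ± 9.81 to 180 ± 19.9 CPM (log2 1.61, adjusted p = 1.17e-06). In barcodes with a Vpreb1 or Igll1 UMI, 2 of 8 were higher and 5 lower, against 25.9% and 27.0% of all genes, with Lin28b at -1.23.

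The pattern of each gene over cell classes and libraries was compared with that of 9998 genes by Pearson's r over 91 sums (12 classes), as a description only, since the sums share libraries and depth. Of the 10 genes themselves, Ebf1 (0.911), Vpreb3 (0.893) and Rag2 (0.890) were nearest to Rag1, and Vpreb1 (0.960) and Vpreb2 (0.917) to Igll1. Among genes outside the 10, those nearest to Rag1 were Chst3 (0.864), Irf4 (0.857), Capsl (0.856), Lef1 (0.850) and Bfsp2 (0.841). Those nearest to Igll1 were Lef1 (0.897), Capsl (0.871) and Chst3 (0.772). No gene came as near to Dntt, for which the highest were Nmral1 (0.612), Rnase12 (0.599), Emid1 (0.584) and Prg2 (0.581). The r of Dntt with the other 9 genes was between 0.131 (Vpreb1) and 0.462 (Cd79b).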

How the data were processed

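Droplet-based single-cell RNA counts were taken from 12 samples of mouse liver. The values deposited by the authors were whole-number UMI counts for each gene in each barcode, not normalised. The matrix headers named software version 3.0.2 (P3) and 3.1.0 (E16.5), while the submitters' processing notes listed Cell Ranger 2.1.1, R 4.1.2, Seurat and mm10, without their roles. The annotation and the treatment of reads matching several genes are not given in the sources used here. The deposited barcode and gene lists are names, not measurements. Coordinates came from GENCODE M21 and promoters from RefSeq, both on GRCm38.

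Doublets were called with Scrublet in scanpy 1.11.5, in 3.67% to 31.8% of barcodes per library. In 1 library (E16.5, Jag1Ndr/Ndr replicate 1), Scrublet's own threshold marked under 0.5%, and the 5% with the highest scores were taken in its place. Called doublets were kept in the main values and left out as an alternative. Barcodes of each stage were clustered on 2000 variable genes without the 10 genes, mitochondrial genes and sex-linked genes, by Leiden clustering (igraph 0.11.9, resolution 1) on 30 principal components and 15 neighbours. A cluster was named from the marker lists by its 10 leading genes. It stayed unnamed with fewer than 3 detected markers, with no marker or a tie among the leading genes, or with over 50% called doublets. This naming rule was settled after the leading genes had been seen and before the 10 genes were compared.

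Counts were summed per library and cell set and tested with edgeR 4.0.16 in R 4.3.3 (TMM, filterByExpr, quasi-likelihood, Benjamini-Hochberg over all genes tested, threshold 0.05), with stage as the only term in the 9 libraries and the homozygous label as the only term in the 5 E16.5 libraries. Standard errors were derived from the F statistic. DESeq2 1.42.0 was an alternative, and the scripts were tested on simulated data. P-values measure the spread between these libraries. CPM in the text are not TMM-scaled, so that a ratio of CPM means can differ from the fitted change. Barcodes with and without a Mki67 or Top2a UMI were compared by an exact sign-flip permutation test on log2(CPM + 10). Alternatives were other normalisations, no filter on low counts, a pseudocount of 50, no thinning, at least 2000 UMIs, no doublets, no erythroid-like barcodes, no libraries A and B, resolution 2, a replicate block and leaving out each library.

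All 10 genes are named. Other genes were named from lists, by the largest fold among those that passed, from at most 6 per list. The 10 genes and the lists were chosen with earlier results of these data known. Replicate numbers were checked for pairing by correlating the deviations of libraries. For E16.5 Jag1Ndr/Ndr and the other genotypes, 3 same-numbered pairs gave 0.121 to 0.279 in whole liver and 0.065 to 0.293 in B-like barcodes. These pairs reuse the homozygous libraries. Differently numbered pairs gave the mirror image (-0.279 to -0.121 and -0.293 to -0.065). The homozygous libraries mirror each other around their own mean, so these values cannot show whether replicate numbers pair. Between the stages, median correlations of same-numbered and other pairs were 0.029 and -0.031 in whole liver and 0.02 and 0.008 in B-like barcodes. They were 0.024 and 0.018 in B-like barcodes with a Vpreb1 or Igll1 UMI.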

Additional observations from a re-analysis of the deposited data

Results flagged for a closer look

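Of 54 groups of 4 or 5 libraries tested for a value far from the rest, 5 had one. Chance gives about 1 in 20. Dntt in E16.5 Jag1Ndr/Ndr replicate 1 was 0.124 CPM in whole liver (the other 4 E16.5 libraries 0.00705 to 0.0232), 1.10 CPM in B-like barcodes (0.0555 to 0.102) and 1.17 CPM in B-like barcodes with a Vpreb1 or Igll1 UMI (0.0603 to 0.108). These 3 values rest on the same molecules. In B-like barcodes this library was also the highest of E16.5 for Vpreb1 (1512 CPM, next 1420.2), Vpreb3 (2125, next 2075), Cd79a (1092, next 957) and Cd79b (628, next 527). These were not flagged. The remaining members lay within the range of the other 4 libraries, for example Rag1 at 203 CPM. In this library the automatic doublet threshold had marked under 0.5% of barcodes, and its median depth was the highest (9256 UMIs). The part of either in the Dntt level was not tested.

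In B-like barcodes with a Vpreb1 or Igll1 UMI, Rag1 was 75.7 CPM in P3 library D (the other 3 P3 libraries 31.8 to 36.5). That set held 280 barcodes in library D, the fewest of the 9 libraries. Rag2 was 22.2 CPM in P3 library B (28.2 to 29.3 in the other 3).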

How the results depend on the processing

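Over the alternatives, 176 of 180 values kept their direction and side of the threshold in whole liver, 175 of 180 in B-like barcodes, and 124 of 126 in B-like barcodes with a Vpreb1 or Igll1 UMI. All 117 genotype values did so in each set, where a sign is not counted for a difference below its own standard error. Dntt was called under every alternative (log2 2.73 to 4.50, 2.32 to 4.58 and 3.82 to 5.91 when each library was left out). With library size only, Vpreb3 in whole liver reversed to 0.19 (adjusted p = 0.372), and Cd79a (0.52) and Cd79b (0.38) passed in barcodes with a Vpreb1 or Igll1 UMI. Vpreb3 in whole liver passed without the E16.5 shared library (-0.59, adjusted p = 0.0382) or without erythroid-like barcodes (-0.66, adjusted p = 0.0336). Of the Mki67 or Top2a comparison, the count of 2 genes became 6 without thinning, and ranged from 2 to 4 when each library was left out, 4 being without P3 library B, where Vpreb1 (-0.24) and Vpreb2 (-0.28) passed as well. No share of all genes was computed for that comparison. Ebf1 there reversed to -0.33 without thinning and to -0.21 within barcodes with a Vpreb1 or Igll1 UMI. With at least 2000 UMIs, an alternative added after seeing the data, the log2 ratio of library C to D reversed for Ebf1, to 0.03, and moved for Rag1 (-0.21), Cd79b (-0.05), Cd79a (0.47) and Vpreb3 (0.77). The cause of these changes was not tested. With the replicate block, the counts of called members stayed at 9, 10, 5, 0 and 0, and the block changed no call. At P3, 1 library per clear genotype and few Dntt molecules limit what can be seen.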
